A study of Caenorhabditis elegans with 15 samples.

Results

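The 10 autophagy genes described here were chosen by name: unc-51, bec-1, vps-34, atg-18, atg-9, atg-7, lgg-1, lgg-2, sqst-1 and epg-5. They are 10 of the 46904 genes in the deposited transcript map, and each was matched by its symbol. RNA was sequenced from dissected intestines of Caenorhabditis elegans, 20 intestines per library, with 5 libraries per group. The 3 groups were wild type, the mutant gas-1(fc21), and gas-1(fc21) carrying an overexpression of cest-2.2 (labelled gas-1 cest-2.2 OE, shortened here to OE). All animals were 5 days old and were raised on OP50 bacteria from bleached eggs. Mitochondrial mutants are the subject of the study, since gas-1 encodes a subunit of respiratory complex I and cest-2.2 encodes a carboxylesterase. The labels used here give neither the promoter of the overexpression nor the number of lines, and there was no group with the overexpression in wild type animals.

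Autophagy encloses cytoplasm in a double membrane, the autophagosome, and delivers it to the lysosome for breakdown. A kinase starts the process, a lipid kinase complex marks the membrane, a ubiquitin-like conjugation system attaches Atg8 proteins to it, receptors bind cargo to Atg8, and tethers bring the finished vesicle to the lysosome. In worms, autophagy genes are needed for the long life of several mutants, and the intestine is a main site of their action. Transcript levels do not measure the flow of cargo through the pathway, and no protein was measured in these libraries.

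Of the 10 genes, sqst-1 had the smallest p-value of any member in gas-1 against wild type, with a mean of 23.9 CPM ± 8.17 for wild type, 108 ± 39.8 for gas-1 and 62.8 ± 18.9 for OE (SD, n = 5 each). CPM are estimated counts scaled to a common library total after TMM scaling, which corrects for differences in library composition. The Atg8 gene lgg-1 stood at 46.5 CPM ± 6.68, 68.3 ± 13.4 and 35.9 ± 5.74 in the same order of groups, so that its highest level was in gas-1 and its lowest in OE. The other 8 genes had smaller or less even differences between the groups. A gene was called where the edgeR quasi-likelihood test gave a p under 0.05 after Benjamini-Hochberg adjustment across the 10585 genes tested, and all 10 autophagy genes were among those tested.

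For gas-1 against wild type, 3 of the 10 genes rose (sqst-1, lgg-1 and epg-5), edgeR called 0 lower, and 7 were not called. The DESeq2 Wald test called 3 higher and 0 lower, and limma-voom 2 higher and 0 lower. Among all genes tested, 21.4% were called in either direction, 12.8% were called higher in gas-1, and in 15.9% the 5 libraries of a group all lay above the 5 of the other. Such a separation was seen in 1 of the 10 genes, sqst-1. Before adjustment, 4 of the 10 had a p under 0.05, the 3 that were called and atg-18, which was lower in gas-1; 37.9% of all genes did. The median log2 fold change of the 10 genes was -0.09, beside -0.11 over all genes, and 5 of the 10 values were above 0. The number called fell from 3 to 1 without wild type replicate 3, without gas-1 replicate 1 or without gas-1 replicate 5.

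For OE against gas-1, 1 of the 10 genes fell, lgg-1, and edgeR, DESeq2 and limma-voom each called 0 higher. The background was lower in this comparison: 1.59% of all genes were called in either direction, 0.954% were called lower in OE, and 3.76% had groups that did not overlap. Among the autophagy genes 3 had an unadjusted p under 0.05 (lgg-1, sqst-1 and vps-34), and vps-34 was the one with the higher level in OE; 15.9% of all genes had such a p. The median log2 fold change was -0.28, beside 0.03 over all genes. For OE against wild type, 1 of the 10 genes rose, sqst-1, with 0 called lower by edgeR, DESeq2 or limma-voom. With limma on log2(TPM + 1), which moved the median of all genes by -0.33, 3 were called lower (lgg-1 at -0.74, lgg-2 at -0.81 and atg-9 at -1.67). Of all genes, 9.33% were called in either direction, 7.09% were called higher in OE, and 6.41% had groups that did not overlap. In CPM the groups did not overlap in 2 of the 10, sqst-1 and atg-9. An unadjusted p under 0.05 was seen in 5 of the 10 and in 25.8% of all genes. The 3 comparisons share libraries pairwise, so their fold changes are not independent of each other.

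**Figure D1:**
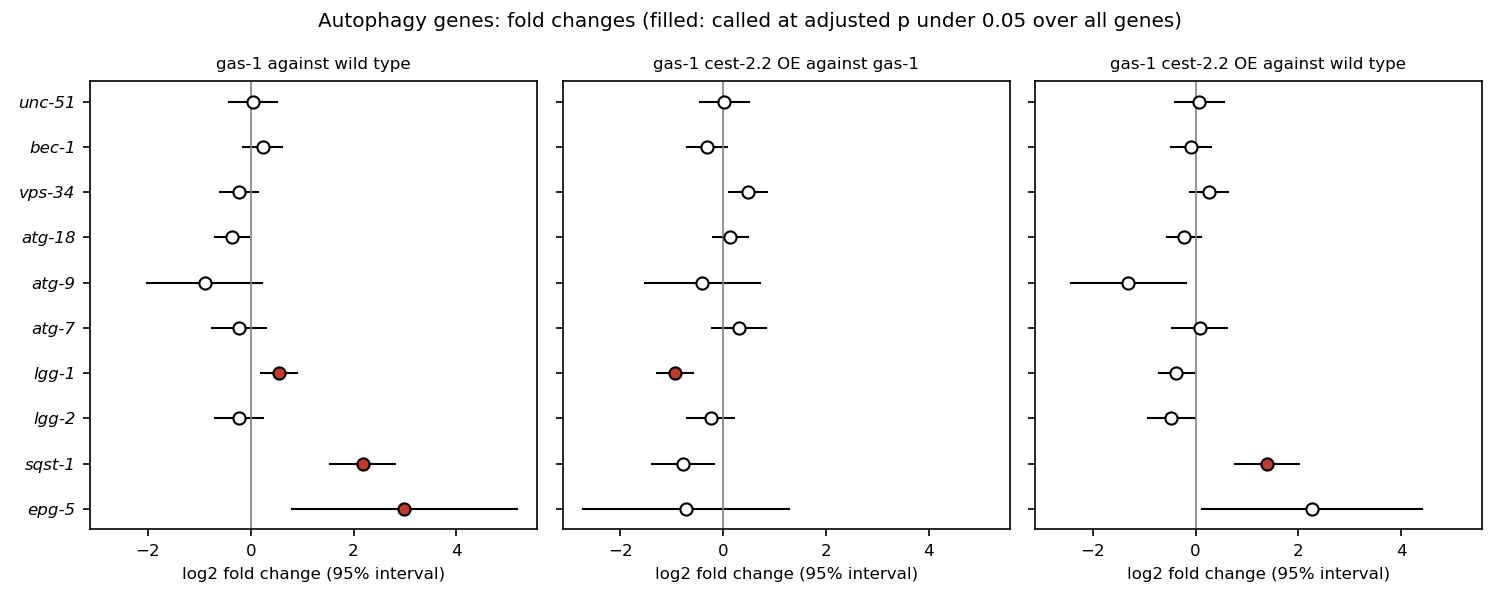
Log2 fold changes of the 10 autophagy genes (points, with 95% intervals; n = 5 libraries per group) in the 3 comparisons, filled where the adjusted p over all genes was under 0.05. The filled points are lgg-1 (0.55), sqst-1 (2.18) and epg-5 (2.99) for gas-1 against wild type, lgg-1 (-0.93) for OE against gas-1, and sqst-1 (1.40) for OE against wild type.

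Library totals were 12182697 to 40045140 estimated counts for wild type, 12607565 to 17688689 for gas-1 and 12785262 to 45896053 for OE. The transcript of gas-1 itself was at 67.8 CPM ± 14.4, 124 ± 20.8 and 121 ± 28.1 in that order, and since fc21 is a missense allele its RNA level does not check the genotype. The cest-2.2 transcript was at 42.2 CPM ± 17.4, 56.1 ± 24.2 and 121 ± 42.7; its difference between OE and gas-1 was 1.11 ± 0.33 (log2 ± SE, edgeR adjusted p 0.109), and the ranges of those groups overlapped. Intestinal markers were abundant in every library, with a summed level of 32231 to 94169 CPM over 19 genes for wild type, 79356 to 134969 for gas-1 and 60204 to 201248 for OE. RNA of other tissues was present as well, and for some tissues it moved with the groups. The sum of 24 germline markers was 4153 to 4920 CPM for wild type, 2509 to 4115 for gas-1 and 3471 to 5617 for OE, and that of 13 body wall muscle markers was 280 to 3474, 307 to 491 and 187 to 591, with the highest values in wild type replicates 1, 2 and 4. For gas-1 against wild type 11 of 18 tested intestinal markers were called higher, 8 of 24 germline, 9 of 18 oocyte and 6 of 13 muscle markers were called lower, beside 12.8% of all genes called higher and 8.63% called lower. In the same comparison 0 of 8 pharyngeal, 0 of 7 somatic gonad and 0 of 2 sperm markers tested were called. Of 10 neuronal markers tested 1 was called higher, and of 4 hypodermal markers tested 2 were called lower. At 0 in all libraries were 1 of 11 pharyngeal (phat-1), 2 of 10 hypodermal (rol-6, bli-1) and 2 of 10 sperm markers (msp-63, ssp-9). The sums of these lists were above 0 in every library. The pharyngeal sum was 11.4 to 68.4 CPM for wild type, 8.96 to 130 for gas-1 and 43.8 to 301 for OE. The hypodermal sum was 86.4 to 399, 78.9 to 172 and 70.7 to 126 in that order. The sperm sum was 1.44 CPM in its lowest library and 13.4 in its highest. Neuronal and somatic gonad sums were 55.6 to 131 and 248 to 543 CPM over the 15 libraries. In such samples, fewer cells of a type and less RNA per cell cannot be told apart.

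Per transcript length, lgg-1 was the most abundant of the 10 in every group. In wild type it stood at 133 TPM ± 25.6 (deposited TPM, transcripts scaled by length and to a common total, summed per gene; SD, n = 5), and all 5 libraries were above every library of the next gene, atg-18, at 75.6 ± 17.1. Below these followed bec-1 (58.2 TPM ± 14.1), lgg-2 (52.8 ± 20.7), atg-7 (30.2 ± 8.06), vps-34 (26.7 ± 6.04), unc-51 (18.8 ± 4.73), sqst-1 (18.3 ± 5.10) and atg-9 (12.5 ± 5.70), each with a range that overlapped that of its neighbour. The tether gene epg-5 was far below the rest at 0.227 TPM ± 0.212. The deposited model of epg-5 is 4800 bases long, while the annotated transcript in Ensembl release 115 has 7291, of which 7059 are coding. Reads from bases outside the deposited model would not be counted, so its counts, CPM and TPM all rest on a shorter model.

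In gas-1 the order was the same at the top and bottom, but sqst-1 was at rank 2 with 71.7 TPM ± 29.2, below lgg-1 at 163 ± 25.8 without overlap and overlapping bec-1 at 56.0 ± 15.6. In OE, lgg-1 stood at 78.9 TPM ± 14.4 and its range overlapped that of atg-18 at 50.6 ± 14.9. There sqst-1 was at rank 4 with 36.9 TPM ± 7.56, after bec-1 at 39.8 ± 8.11, again with overlapping ranges. The lowest gene was epg-5 in each strain, at 1.52 TPM ± 2.49 in gas-1 and 0.893 ± 0.693 in OE, and in both its range overlapped that of atg-9.

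**Figure D2:**
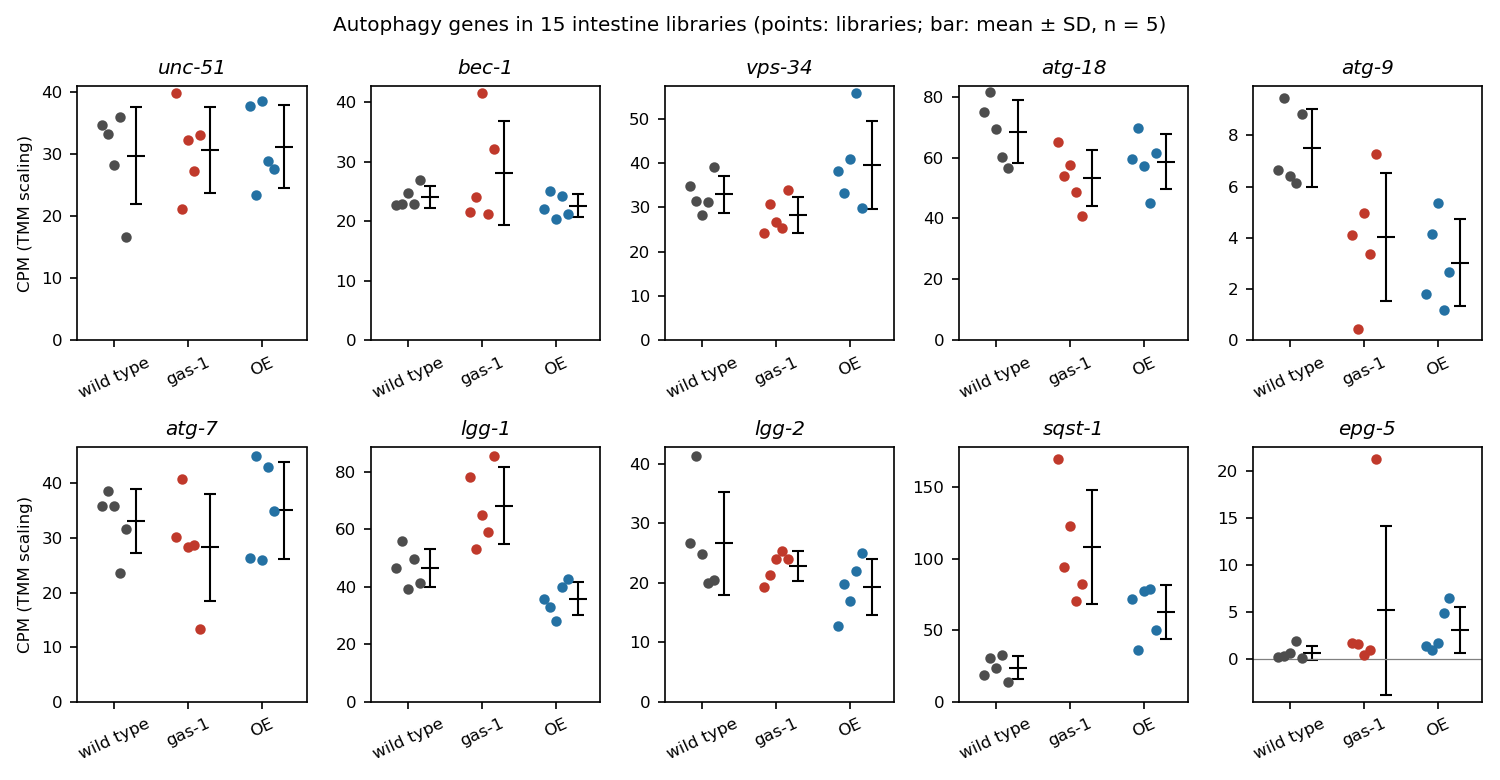
CPM of each autophagy gene (y axis, linear, TMM scaled) in the 15 libraries by group, with a bar at the mean ± SD (n = 5). The gas-1 libraries of sqst-1 (70.4 to 170) lie above all wild type libraries (13.4 to 32.9), the OE libraries of lgg-1 (28 to 42.6) lie below all gas-1 libraries (53.3 to 85.6), and a single gas-1 library of epg-5 stands at 21.3.

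The kinase that starts autophagosome formation is encoded by unc-51 (chromosome V, 19995986 to 20004485, WBcel235, minus strand), the worm member of the Atg1 and ULK family. Its level was 29.7 CPM ± 7.86 for wild type, 30.7 ± 6.92 for gas-1 and 31.2 ± 6.67 for OE. The ranges, 16.7 to 35.9, 21.2 to 39.8 and 23.4 to 38.5, almost coincided. Its log2 fold change was 0.05 for gas-1 against wild type, with a 95% interval of -0.43 to 0.52, and 0.02 for OE against gas-1, with an interval of -0.45 to 0.50 (edgeR adjusted p 0.895 and 0.977). The upper ends of these intervals lie close to the 0.55 measured for lgg-1, and the direction of unc-51 turned under several other settings.

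The lipid kinase complex that makes phosphatidylinositol 3-phosphate on the forming membrane is represented by bec-1 (IV, 5661141 to 5664425, minus strand), the Beclin 1 homolog, and by vps-34 (I, 6028486 to 6033458, plus strand), the catalytic kinase. For bec-1 the wild type libraries held 22.7 to 26.9 CPM and the OE libraries 20.4 to 25, with coefficients of variation of 7.53% and 8.70%, the smallest of the 10 genes in any group. Its gas-1 libraries reached from 21.2 to 41.6 CPM, with replicates 3 and 5 at 41.6 and 32.1 and the other 3 at 21.2 to 24.1. The log2 fold change of bec-1 was 0.23 ± 0.18 for gas-1 against wild type and -0.32 ± 0.18 for OE against gas-1 (edgeR adjusted p 0.385 and 0.427).

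For vps-34 the libraries held 34.8, 31.4, 28.2, 31.3 and 39.2 CPM for wild type, 24.3, 30.8, 26.6, 25.3 and 34 for gas-1, and 38.1, 33.2, 40.8, 55.8 and 29.9 for OE (replicates 1 to 5). In OE, 3 libraries exceeded every gas-1 library, and the groups overlapped. The difference between OE and gas-1 was 0.49 ± 0.18 (log2 ± SE, unadjusted p 0.0135), and with an edgeR adjusted p of 0.185 it was not called. Both genes overlap a non-coding RNA gene on the opposite strand outside their exons, T19E7.24 at bec-1 and B0025.6 at vps-34, and the libraries keep no strand.

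The phosphatidylinositol 3-phosphate made by that complex is bound by the WIPI family protein of atg-18 (V, 8629174 to 8631327, minus strand). Its level was 56.5 to 81.5 CPM for wild type, 40.7 to 65.1 for gas-1 and 45.1 to 69.8 for OE, with means of 68.5 ± 10.3, 53.2 ± 9.15 and 58.7 ± 8.90. The groups overlapped in every comparison. For gas-1 against wild type the difference was -0.37 ± 0.16 (log2 ± SE) with an unadjusted p of 0.0352 and an edgeR adjusted p of 0.105, so it was not called. With the mean level of the germline markers as a covariate it was -0.23, with an adjusted p of 0.772.

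The membrane protein of atg-9 (V, 349385 to 359658, plus strand) brings lipid to the growing membrane. Its libraries held 6.64, 9.48, 6.42, 6.15 and 8.84 CPM for wild type, 4.10, 0.436, 4.95, 3.36 and 7.29 for gas-1, and 1.81, 4.13, 5.37, 1.19 and 2.67 for OE. All 5 OE libraries were below all 5 wild type libraries, whereas gas-1 replicate 5 was within the wild type range and gas-1 replicate 2, with 7 estimated counts, was the lowest of the 15. The log2 fold change was -1.31 ± 0.53 for OE against wild type (95% interval -2.43 to -0.19, edgeR adjusted p 0.132) and -0.90 ± 0.53 for gas-1 against wild type (adjusted p 0.220). Neither passed the test, and 1 of the 27 alternatives called the first of them.

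The conjugation step that loads Atg8 proteins onto the membrane begins with the enzyme of atg-7 (IV, 11078682 to 11081055, minus strand), which activates them. It was at 33.1 CPM ± 5.89 for wild type, 28.3 ± 9.83 for gas-1 and 35.0 ± 8.96 for OE. In gas-1 its lowest library was replicate 5 at 13.3 CPM and its highest replicate 2 at 40.9, a spread that took in nearly the whole wild type range of 23.5 to 38.6. The difference between gas-1 and wild type was -0.23 ± 0.25 and that between OE and gas-1 was 0.31 ± 0.25 (log2 ± SE, edgeR adjusted p 0.536 and 0.600).

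Worms have a pair of Atg8 homologs, lgg-1 (II, 6346960 to 6347719, minus strand), closest to the GABARAP proteins of mammals, and lgg-2 (IV, 10934196 to 10935903, minus strand), closest to the LC3 proteins. Both are conjugated to lipid and mark autophagosomes. The lgg-1 libraries held 46.7, 56.0, 39.3, 49.5 and 41.2 CPM for wild type, 78.1, 53.3, 65.1, 59.1 and 85.6 for gas-1, and 35.6, 33.1, 28, 39.9 and 42.6 for OE. Only gas-1 replicate 2 fell inside the wild type range. All 5 OE libraries were below all 5 gas-1 libraries, and 3 of them were below every wild type library.

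In gas-1, lgg-1 rose 1.47-fold over wild type (0.55 ± 0.17 on the log2 scale, 95% interval 0.20 to 0.90, edgeR adjusted p 0.0273). By p-value this rise was among the first 14.6% of all genes, where 21.4% were called. The call was lost without wild type replicate 3 (adjusted p 0.0662), without gas-1 replicate 1 (0.0635) or without gas-1 replicate 5 (0.0568). It was lost with the germline marker level as a covariate too, where the log2 fold change was 0.20 and the adjusted p 0.787; with that covariate 181 genes in all were called in this comparison, and 2268 without it. On deposited TPM the change was 0.30 with an adjusted p of 0.199, on a scale that moved the median of all genes by -0.20.

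With cest-2.2 overexpression, lgg-1 fell to 0.525 of its gas-1 level, a log2 fold change of -0.93 ± 0.17 (95% interval -1.28 to -0.58, edgeR adjusted p 0.00724). It ranked 55 of 10585 genes by p-value in that comparison and 1026 from the lowest by fold change. The fall was called in each of the 15 fits that left out a single library, with adjusted p from 0.00572 to 0.0258, and in 26 of 27 alternatives. The exception was the germline marker covariate, with a log2 fold change of -0.69 and an adjusted p of 0.0745, where 158 genes in all were called, and 168 without it. In this comparison edgeR called 0 of 24 germline markers. Of them 12 had an unadjusted p under 0.05, beside 15.9% of all genes, and their median log2 fold change was 0.39. Against wild type, the OE level of lgg-1 was 0.771-fold (-0.37 ± 0.17, edgeR adjusted p 0.167) and was not called.

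The second Atg8 gene, lgg-2, had its highest libraries in wild type, at 26.7, 41.3, 24.8, 20.0 and 20.5 CPM. Its gas-1 libraries lay between 19.3 and 25.4 CPM and its OE libraries between 12.7 and 25. The log2 fold changes were -0.23 ± 0.22 for gas-1 against wild type, -0.24 ± 0.22 for OE against gas-1 and -0.47 ± 0.22 for OE against wild type (edgeR adjusted p 0.468, 0.646 and 0.188). The first had the opposite sign to that of lgg-1, turned to 0.06 without wild type replicate 2, and the difference between the Atg8 genes was not tested.

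Because both are measured in the same library, the ratio of lgg-2 to lgg-1 in TPM does not depend on the scaling between libraries. It was 0.392, 0.507, 0.426, 0.278 and 0.339 for wild type, 0.170, 0.280, 0.247, 0.296 and 0.190 for gas-1, and 0.240, 0.419, 0.416, 0.361 and 0.397 for OE. The means were 0.388 ± 0.0871, 0.237 ± 0.0550 and 0.367 ± 0.0744. Wild type and OE overlapped widely, and gas-1 lay lower, with ranges that overlapped both. The ratios were not tested.

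**Figure D3:**
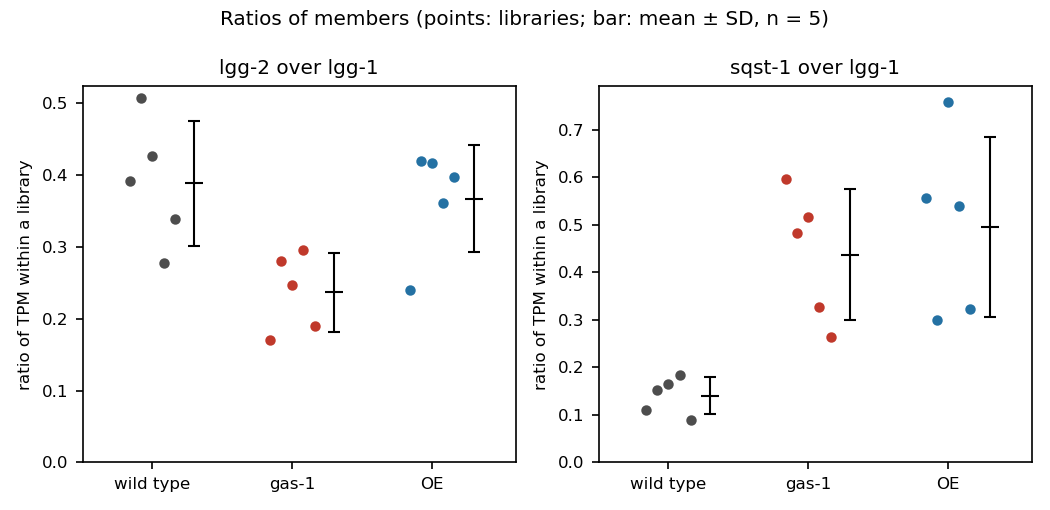
Ratio of TPM of lgg-2 to lgg-1 (left) and of sqst-1 to lgg-1 (right) in each of the 15 libraries, with the mean ± SD (n = 5 per group). The mean of the first ratio is 0.388 for wild type, 0.237 for gas-1 and 0.367 for OE, and the second is at most 0.183 in wild type and at least 0.263 in the other libraries.

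The receptor gene sqst-1 (IV, 12034282 to 12036891, plus strand) is the worm homolog of p62, a protein that binds ubiquitin-marked cargo and Atg8 and is itself broken down with the cargo. Its libraries held 18.6, 30.8, 23.5, 32.9 and 13.4 CPM for wild type, 170, 94.1, 123, 70.4 and 82.2 for gas-1 and 72.1, 36.0, 77.4, 78.6 and 50.0 for OE. Every gas-1 and every OE library was above every wild type library. Between gas-1 and OE there was overlap, with 3 OE libraries above the lowest gas-1 library.

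In gas-1, sqst-1 rose 4.52-fold over wild type (2.18 ± 0.30 on the log2 scale, 95% interval 1.54 to 2.81, edgeR adjusted p 0.000171). It ranked 378 of 10585 genes by fold change and 102 by p-value. The rise was called in all 27 alternatives, with log2 fold changes of 1.41 to 2.56. Its weakest form was with the germline marker covariate, at 1.41 and an adjusted p of 0.0370. In OE, sqst-1 rose 2.63-fold over wild type (1.40 ± 0.29, 95% interval 0.77 to 2.02, edgeR adjusted p 0.00882), a call lost in 1 of 27 alternatives, without wild type replicates 1, 2 and 4 together, where it was 1.76 with an adjusted p of 0.0536. The OE level was 0.582 of the gas-1 level, a difference of -0.78 ± 0.29 (95% interval -1.39 to -0.17, unadjusted p 0.0153, edgeR adjusted p 0.195) that was not called.

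Set against lgg-1 in the same library, sqst-1 was at 0.0895 to 0.183 of its TPM for wild type, at 0.263 to 0.597 for gas-1 and at 0.299 to 0.759 for OE. The wild type libraries were again below all others. The means in gas-1 and OE, 0.438 ± 0.138 and 0.495 ± 0.190, differed by less than their spread, and the lower sqst-1 level in OE went with a lower lgg-1 level.

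The 3 deposited sqst-1 transcripts fall into a and b forms. In Ensembl release 115, T12G3.1a.1 begins at position 12034282 with an exon of 169 bases and has 3 exons, while T12G3.1b.1 begins 525 bases downstream at 12034807, inside the second exon of the a form, and has 2. The coding part of the a form is 216 bases longer. Reads over the shared exons fit both forms, so the division of counts between them is an estimate by kallisto. The deposited models are 2413 and 2443 bases long for the a forms and 2377 for the b form, longer than in that release, so their exact ends are not those given above.

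The a forms were given 0 of 2836 estimated counts over the 5 wild type libraries. Counting error alone would allow a share of up to 0.106% with the 5 libraries pooled, and of up to 0.299% to 1.28% in single libraries. These limits hold if every count is independent and can tell the forms apart. Reads over the shared exons cannot, and without molecular identifiers copies of a read are counted again, so the limits are higher by an unknown amount. They also leave out the spread between libraries. In gas-1 they held 18.9%, 13%, 19.4%, 7.79% and 25.3% of the sqst-1 counts, a mean of 16.9% ± 6.69, and were present in all 5 libraries. In OE they held 11.7%, 0%, 8.74%, 42.2% and 6.48%, a mean of 13.8% ± 16.4, with replicate 2 at 0 and replicate 4 the highest of the 15. The b form, at 23.9 CPM ± 8.17 for wild type, 89 ± 31.1 for gas-1 and 52.5 ± 14.2 for OE, made up most of the difference in the gene's total.

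**Figure D4:**
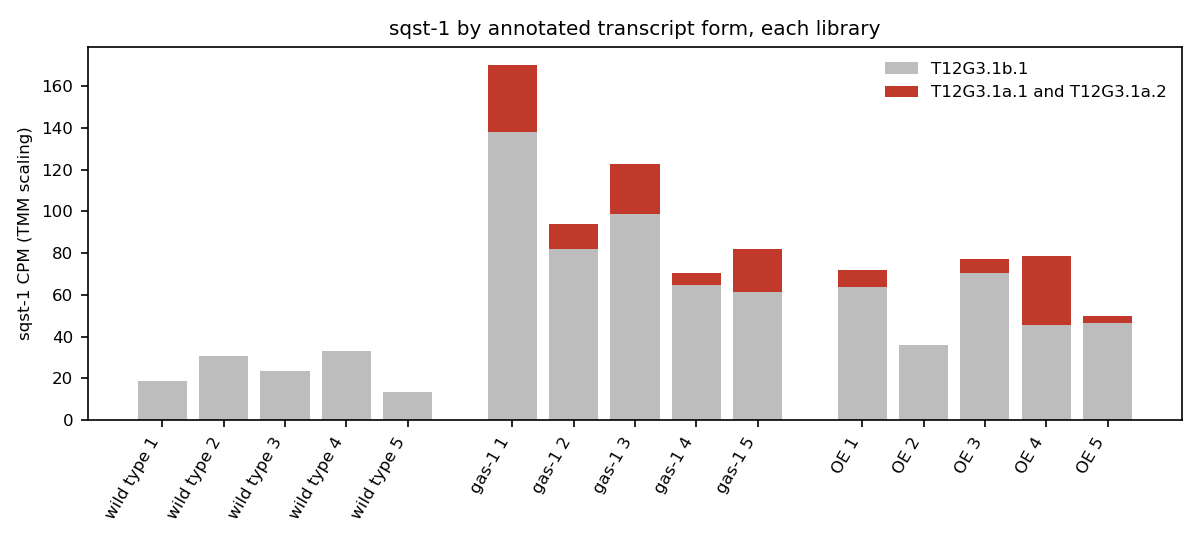
Stacked CPM (TMM scaled) of the sqst-1 transcript T12G3.1b.1 (grey) and of the 2 T12G3.1a transcripts (red) in each library, as divided by kallisto. The a forms are at 0 in all 5 wild type libraries, hold 7.79% to 25.3% of the gas-1 total and 0% to 42.2% of that of OE.

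The share of the most abundant transcript was compared for the 5 members with several transcripts and enough counts (lgg-2, sqst-1, bec-1, atg-18 and vps-34), which gave 15 tests over the 3 comparisons. For sqst-1 the share of the b form was 16.9 percentage points lower in gas-1 than in wild type, with an exact two-sided permutation p of 0.00794, the smallest that 5 against 5 allows, and 0.119 after adjustment over the 15 tests. For OE against wild type the exact permutation p was 0.0317 (adjusted 0.238) and for OE against gas-1 it was 0.730 (adjusted 0.913). After adjustment 0 of the 15 permutation tests passed, and sqst-1 gave both of those with an unadjusted p under 0.05. A single test at the smallest possible p adjusts to 0.119 over 15 tests, so no test could pass on its own, even with groups fully apart. The main transcript of bec-1, T19E7.3a.1, held 67.1% ± 6.21 for wild type, 66.7% ± 5.45 for gas-1 and 70.9% ± 4.44 for OE, and the shares of lgg-2 and atg-18 varied more between replicates than between groups.

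The last member by role, epg-5 (II, 6598344 to 6609365, minus strand), encodes a tether that joins autophagosomes to late endosomes and lysosomes. It was the least abundant of the 10, with 4, 9, 31, 21 and 3 estimated counts in the wild type libraries. In CPM it held 0.208, 0.314, 0.726, 1.96 and 0.171 for wild type, 1.70, 1.68, 0.437, 1.02 and 21.3 for gas-1, and 1.42, 1.05, 1.70, 4.92 and 6.53 for OE. The gas-1 libraries other than replicate 5 lay within the wild type range of 0.171 to 1.96, as did 3 of the OE libraries.

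The rise of epg-5 in gas-1 was called at 2.99 ± 1.03 on the log2 scale with an edgeR adjusted p of 0.0490, just under the threshold. Without gas-1 replicate 5 it was 0.92 with an adjusted p of 0.453. The call was also lost without wild type replicate 1 (0.105), 2 (0.102), 3 (0.0807) or 5 (0.106), without gas-1 replicate 1 (0.0548) and without OE replicate 1 (0.0555), 3 (0.0556), 4 (0.0555) or 5 (0.0546). It passed in 8 of 25 alternatives, and with the germline marker covariate it was 0.53 with an adjusted p of 0.919. The gene overlaps the protein-coding vps-33.2 on the opposite strand over 2244 bases, of which 8 are exonic in both, and without strand the reads of such bases cannot be assigned. For OE against wild type its difference was 2.26 ± 1.01 (edgeR adjusted p 0.172).

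To place sqst-1 and lgg-1 among all genes, the 5786 tested genes whose mean log2 CPM reached 3 were ranked by the Pearson correlation of their log2 CPM with each over the 15 libraries. The libraries share their groups, so such an r reflects group differences as well as differences between replicates; it is a description with no test. Closest to sqst-1 were F19B2.5 (r = 0.962), the C-type lectin gene clec-265 (0.960), cdr-2 (0.959), a cadmium-responsive gene family member, comt-3 (0.959) and clc-24 (0.955). After the group means were subtracted their r with sqst-1 was 0.81, 0.90, 0.80, 0.89 and 0.76. Their group means had the same order as those of sqst-1. Those of cdr-2 were 5.91 CPM ± 1.99 for wild type, 84.1 ± 36.4 for gas-1 and 36.7 ± 15.7 for OE. The genes were picked by r over these same libraries, which favours a shared order of group means and raises the r within groups.

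Closest to lgg-1 were dhs-23 (r = 0.892), a short-chain dehydrogenase gene, the aspartyl protease gene asp-12 (0.855), dod-17 (0.830), sur-7 (0.820) and Y46D2A.2 (0.809). Within groups these were 0.54, 0.45, 0.31, 0.78 and 0.60, after the same choice by r. The group means of dhs-23 were 7.98 CPM ± 2.67, 21.2 ± 12.1 and 3.79 ± 1.41. None of the other autophagy genes was among the 5 closest to either gene. Of these, atg-9 and epg-5 lay below the cutoff on mean log2 CPM and could not be listed. Over the 15 libraries lgg-1 and sqst-1 themselves had an r of 0.40, as did lgg-1 and lgg-2.

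The rest of the pathway was taken from 57 further genes grouped by role, of which 54 were in the map and 52 were tested. For gas-1 against wild type 1 of the 52 rose and 2 fell, with 11 at an unadjusted p under 0.05 and a median log2 fold change of -0.14. Of all genes 12.8% were called higher, 8.63% were called lower and 37.9% had an unadjusted p under 0.05. None of the 2 initiation, 2 nucleation, 4 membrane supply, 7 conjugation or 17 regulator genes was called by edgeR, with 1, 0, 1, 0 and 3 of them at an unadjusted p under 0.05. All 3 calls were among the 8 receptor and cargo genes and the 12 fusion and lysosome genes. For OE against gas-1 edgeR, DESeq2 and limma-voom called 0 of the 52 (5 at an unadjusted p under 0.05), beside 1.59% of all genes called by edgeR and 15.9% at such a p. For OE against wild type edgeR and limma-voom called 0 and DESeq2 called 2 (10 at an unadjusted p under 0.05), beside 9.33% and 25.8% of all genes. The medians were -0.01 and -0.11.

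The gene that rose was lmp-1, which encodes a lysosomal membrane protein of the LAMP family. It held 66.0, 67.2, 69.1, 87.8 and 55.2 CPM in wild type and 154, 72.6, 137, 94.6 and 103 in gas-1, a difference of 0.70 ± 0.22 (log2 ± SE, edgeR adjusted p 0.0328), and 107 CPM ± 27 in OE. Of the genes that fell, vps-39 encodes a subunit of the HOPS complex that tethers vesicles to the lysosome. It held 110, 105, 92.1, 83.7 and 91.3 CPM in wild type and 53.5, 73.3, 79.3, 68.4 and 70.7 in gas-1, with no overlap, and differed by -0.48 ± 0.16 (adjusted p 0.0431). The other, pgl-1, encodes a germ granule protein that is degraded by autophagy in embryonic somatic cells and is also one of the germline markers used here. It stood at 278 CPM ± 17 in wild type and 179 ± 63.1 in gas-1 (-0.63 ± 0.21, adjusted p 0.0405).

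Of the 15 fits that left out a single library, lmp-1 was called in 10, pgl-1 in 4 and vps-39 in 3. For lmp-1 the call was lost without wild type replicate 1 (adjusted p 0.0531), 3 (0.0578) or 5 (0.0589) and without gas-1 replicate 1 (0.0884) or 3 (0.0833). For pgl-1 it held without wild type replicate 4, gas-1 replicate 2 or OE replicate 3 or 5, and for vps-39 without wild type replicate 4 or OE replicate 2 or 3; without any other single library the adjusted p of pgl-1 was 0.0504 to 0.143 and that of vps-39 was 0.0512 to 0.172. With the germline marker covariate the log2 fold changes were -0.02 for lmp-1 and -0.18 for vps-39, and neither was called; pgl-1 is part of that covariate, so its value in that fit says nothing.

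**Figure D5:**
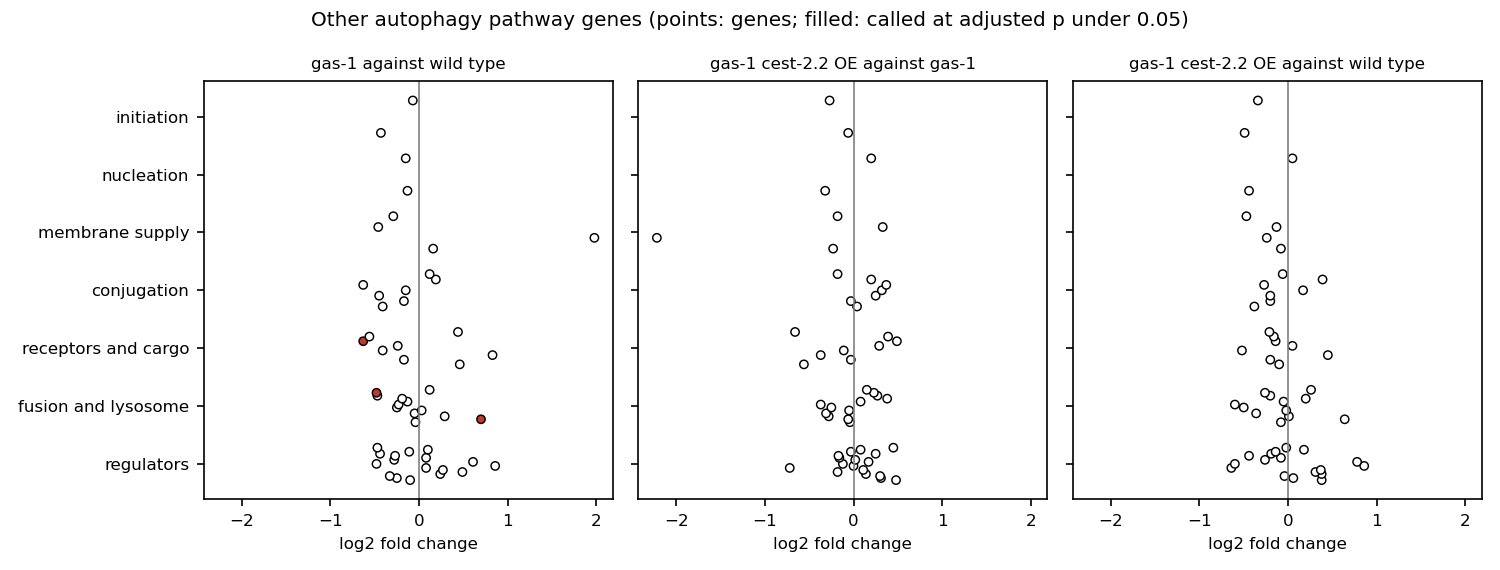
Log2 fold changes (x axis) of the 52 tested genes of the pathway other than the 10 members, by role, in the 3 comparisons, filled where called at an adjusted p under 0.05. Filled points are lmp-1 (0.70), vps-39 (-0.48) and pgl-1 (-0.63) for gas-1 against wild type, and the point furthest from 0 in the first 2 panels is epg-3 (1.98 and -2.22), which was not called.

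Of the regulators, hlh-30 was picked out after its values were seen, as the worm homolog of TFEB, a transcription factor that activates autophagy and lysosomal genes. Its mean was 23.4 CPM for wild type, 32.8 for gas-1 and 29 for OE. The difference between gas-1 and wild type was 0.49 ± 0.28 (log2 ± SE, 95% interval -0.11 to 1.08, edgeR adjusted p 0.214), and it was not called in any of the 3 comparisons.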

How the data were processed

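Per the labels' protocols, intestines were dissected and frozen in groups, and Smart-seq2 libraries without strand information were made. Per the submitters' processing notes, bcl2fastq 2.20, kallisto 0.44.0 and the build WBcel235 were used; the annotation release is not given in the sources used here. The deposited files hold estimated counts and TPM per transcript, per the file headers, with transcript lengths as other values in bases. Transcripts carry integers, read as line numbers of the deposited map counted from 0. Under that reading 99.96% of 27233 non-coding transcripts had the length annotated in Ensembl release 115, against 53.05% with the map moved by 1 line. Of 28895 coding transcripts, 99.55% were at least as long as their annotated coding part, and that of epg-5 was not. The authors' deposited comparison table (signal, p-values, log2 and other fold changes, scores) was not used, because its names did not go with its values.

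Estimated counts were summed per gene and rounded. edgeR 4.0.16 (R 4.3.3) fitted all 15 libraries together by quasi-likelihood, on TMM-scaled counts of genes kept by filterByExpr (minimum count 10), which left 12 residual degrees of freedom. The common biological coefficient of variation was 0.527. Adjusted p-values are Benjamini-Hochberg over all 10585 genes, and log2 CPM for correlations used a prior count of 2. The SE of an edgeR log2 fold change was derived from that fold change and its F statistic. The 95% intervals rest on this SE, so both are approximate. DESeq2 1.42.0, limma 3.58.1, deposited TPM with a pseudocount of 1 or 0.1, other filters and scalings, a replicate block, a germline marker covariate, and fits without single libraries were alternatives, 27 in all. Counting error alone stands behind limits for counts of 0, since the reads have no molecular identifiers.

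The 10 members and all lists were chosen with earlier results of these data known. Named genes are the 10 members, any listed pathway gene called in a comparison, the 5 genes most like sqst-1 and the 5 most like lgg-1, gas-1 and cest-2.2, genes overlapping a member, and epg-3 and hlh-30, which were named after their values were seen. The listed names atg-11, uvrag-1 and rub-1 had no match in the map, and atg-10 and scrm-5 were too low to test. The labels do not say whether replicates came from separate cultures, so p-values measure the spread between these samples, which may be technical. Chi-square per degree of freedom between libraries of a group was at least 30.7, so no library repeated another. Of 5 same-numbered pairs, 0, 1 and 1 had residuals correlated above 0.1 in the 3 comparisons, with 0.27 for replicate 2 of OE and gas-1. Pairs with different numbers were not compared, so this cannot settle whether same-numbered samples shared a batch.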

Additional observations from a re-analysis of the deposited data

Results flagged for a closer look

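A single library stood apart among the 30 sets of 5 libraries (10 genes in 3 groups) that were screened for one value far from the rest. It was gas-1 replicate 5 for epg-5, at 21.3 CPM where the other gas-1 libraries held 0.437 to 1.70, and the gap made up 0.940 of the range. Chance alone marks about 1 in 20 such sets if values are normally distributed, and 1 of 30 is below that rate. The screen was run on linear CPM, where low and uneven counts such as those of epg-5 can exceed the rate. The same library had the highest lgg-1 level (85.6 CPM) and the lowest atg-7 level (13.3 CPM) of its group, and without it the difference of epg-5 between gas-1 and wild type was 0.92 on the log2 scale with an edgeR adjusted p of 0.453. What set this library apart was not tested.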

How the results depend on the processing

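Of the calls among the 10 genes, the rise of sqst-1 in gas-1 held in all 27 alternatives, the fall of lgg-1 in OE against gas-1 and the rise of sqst-1 in OE against wild type in 26 each, the rise of lgg-1 in gas-1 in 18, and that of epg-5 in 8 of 25. For gas-1 against wild type the number of members called was 3, and it was 1 without the filter on low counts, in each of the 3 fits on TPM, without wild type replicates 1, 2 and 4 together, and with the germline marker covariate. Leaving out single libraries gave 1 to 3. For OE against gas-1 it was 1, and 0 with the germline marker covariate. That covariate took the calls over all genes from 2268 to 181 in gas-1 against wild type and from 168 to 158 in OE against gas-1. For OE against wild type it was 1, and 4, 3 and 2 in the fits on TPM with pseudocount 1, pseudocount 0.1 and no filter, and 0 without wild type replicates 1, 2 and 4 together. The cause of these shifts was not tested. With the replicate number as a block the counts were 2, 1 and 1, epg-5 was lost (adjusted p 0.138), and of the other pathway genes vps-39 was lost (0.0568); the numbers are not stated to mark a shared batch. The number of other pathway genes called in gas-1 against wild type was 3, and 0 to 7 over the alternatives, with 7 on TPM; for OE against wild type it was 0, and 0 to 7.

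Directions turned mainly in genes that were not called. On TPM with pseudocount 1, bec-1 (-0.05) and unc-51 (-0.16) turned for gas-1 against wild type, unc-51 (-0.10) for OE against gas-1, and unc-51 (-0.26), atg-7 (-0.29) and vps-34 (-0.14) for OE against wild type. With pseudocount 0.1 these were -0.05, -0.17, -0.10, -0.27, -0.30 and -0.14, and without a filter -0.05, -0.16, -0.10, -0.26, -0.29 and -0.14. TPM moved the median of all genes by -0.20, -0.13 and -0.33 in the 3 comparisons at pseudocount 1, and turned the 1355 higher and 913 lower calls of gas-1 against wild type into 1187 and 1700. With the germline marker covariate, unc-51 (-0.55), atg-7 (0.19), lmp-1 (-0.02) and pgl-1 (0.01, itself in the covariate) turned for gas-1 against wild type, atg-9 (0.08) and epg-5 (0.90) for OE against gas-1, and unc-51 (-0.12) for OE against wild type. For OE against gas-1, unc-51 was -0.01 with DESeq2, with its size factors in edgeR and without vitellogenin genes, and epg-5 was 0.76 with limma-voom. Without wild type replicates 1, 2 and 4 together lgg-2 was 0.03 for gas-1 against wild type.

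Without single libraries, the ranges of the values that turned were -0.32 to 0.06 for lgg-2 and -0.06 to 0.23 for unc-51 in gas-1 against wild type. They were -1.20 to 1.33 for epg-5 and -0.10 to 0.13 for unc-51 in OE against gas-1. For OE against wild type they were -0.02 to 0.21 for atg-7, -0.11 to 0.02 for bec-1 and -0.01 to 0.22 for unc-51. The difference in the share of the sqst-1 b form between OE and gas-1 was -0.385 to 10.2 percentage points, negative without OE replicate 2; these share alternatives were chosen after seeing the data. For epg-5 each wild type library held 3 to 31 estimated counts.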
